A study of Mus musculus with 3 samples.

Results

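The genes described here make and control cellular cholesterol: the enzymes of the mevalonate and sterol pathways, the SREBP2 regulators that set their transcription, and the proteins that move and store sterol. They were chosen by name, and all 29 were found among the 24067 genes of the deposited table, 28 by symbol and Msmo1 by its NCBI gene ID, because the table lists it under its older symbol Sc4mol. All 29 had a mean of at least 1 FPKM (fragments per kilobase of transcript and per unit of mapped library) over the 3 libraries. The cells were primary mouse pre-osteoclasts from bone, the mononuclear, TRAP-positive precursors that fuse into bone-resorbing osteoclasts, grown with MCSF and RANKL for 2 days. One library came from static cells with control shRNA, one from cells with control shRNA after 24 hours of orbital shear stress (fluid flow made by swirling the dish), and one from cells with Ift88 shRNA after the same 24 hours of shear. The labels give the genotype as wild type for both control shRNA libraries and as Ift88 knockdown for the last. The sources used here name no strain, age, vector or number of animals. A static Ift88 shRNA culture was not analysed here, which means that shRNA effects with and without a need for shear cannot be told apart. With 1 library per group there is no replicate check and no p-value, and every difference is a difference between libraries.

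Cholesterol is built from acetyl-CoA. The mevalonate enzymes join acetyl units and make the isoprenoid building blocks, farnesyl diphosphate is either joined head to head into squalene or used to anchor proteins to membranes, and squalene is closed into lanosterol and trimmed to cholesterol. Most of these enzymes share one transcriptional switch: when membrane cholesterol is low, SCAP escorts SREBP2 from the endoplasmic reticulum to the Golgi, where site-1 and site-2 proteases release the active factor, and when sterol is plentiful INSIG proteins hold SCAP back. In the osteoclast lineage the pathway is known as the target of nitrogen-containing bisphosphonates, bone drugs that inhibit farnesyl diphosphate synthase and thereby the prenylation of small GTPases.

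In the data, 18 of 20 enzymes were higher in sheared than in static control cells, and 18 of 20 were higher with Ift88 shRNA than with control shRNA under shear, counting differences of any size, where 46% and 53.6% of all genes averaging 1 FPKM or more were. The summed level of the 20 enzymes was 343, 391 and 456 FPKM in the static control, sheared control and sheared Ift88 shRNA library, the order in which every triplet of levels is given from here on. Single differences were modest, with FPKM ratios up to 1.38 for shear and up to 1.42 for Ift88 shRNA. The genes of lysosomal cholesterol export and esterification, Npc1, Npc2 and Soat1, were level or lower. Ratios are followed in brackets by 95% counting intervals from estimated fragments, which cover counting error only and not the variation between cultures.

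Ift88, the intraflagellar transport gene targeted by the shRNA, was at 2.98, 2.71 and 1.197 FPKM, so the library labelled Ift88 shRNA held 0.442 times the sheared control level. Estimated depth was 34785000 to 35250000 fragments per library. The defining pre-osteoclast genes were present: Acp5, which encodes TRAP, was at 97.7, 52.9 and 83.05 FPKM, and the cathepsin K gene Ctsk at 29.4, 12.6 and 18.5 FPKM. Of the 9 pre-osteoclast markers that passed the filter, 4 were at least 1.2-fold lower and 1 higher in sheared than in static control cells. Of all genes, 2.26% and 1.94% were. With Ift88 shRNA under shear, 5 of the 9 were at least 1.2-fold higher than with control shRNA, where 3.25% of all genes were. The 6 neutrophil markers summed to 52.9, 20.8 and 25.1 FPKM, the 6 stromal markers to 9.95, 7.76 and 9.76 FPKM, and the lymphoid genes Cd3e and Ms4a1 were at 0 in all 3. The 5 macrophage markers, which the precursors themselves express, summed to 32955, 31321 and 32520 FPKM. The 7 proliferation genes summed to 64.2, 72.7 and 81.2 FPKM, with median ratios of 1.11 for shear and 1.14 for Ift88 shRNA. In each step 1 passed 1.2-fold upward, Ccnb2 for shear and Ccna2 for Ift88 shRNA, against 1.94% and 3.25% of all genes. Between the sheared Ift88 shRNA and the static control library 5 of the 7 did, against 4.79% of all genes. All 7 counting intervals lay above 1 there, against 21.3% of genes with estimated fragments. Their median ratio was 1.28 there, against 1.25 for the 29 sterol genes. The part of these other groups in the sterol gene differences was not tested. In bulk RNA, fewer cells of one kind and less RNA per cell cannot be told apart.

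Promoter windows were examined for what the genes share beyond their pathway, since SREBP2 acts at short sterol response elements together with the factor NF-Y, which binds the CCAAT box, and with Sp1, which binds the GC box GGGCGG. RefSeq windows from 250 bases before to 50 bases after a start site (GRCm38.p6) were at hand for 24 of the 29 genes, and those without one were Fdps, Fdft1, Sqle, Stard4 and Npc1. CCAAT, read on both strands, was found in a window of 21 of the 24 genes (87.5%), against 43.2% of 8393 genes averaging 1 FPKM or more and 41.1% of all 27025 genes with a window. GGGCGG was found in 22 (91.7%), against 70.3% of the expressed genes and 38.2% of all. The E-box CACGTG was in 5 (20.8%), against 12.5% and 8.09%. The sterol response element core TCACNCCAC was in Hmgcs1 alone, against 1.37% and 1.44%, and its looser form TCACNCNAC, which contains the core, also in Nsdhl. These are matches of letters, not binding sites, and a window without a match says nothing of the factor. With Ift88 shRNA under shear, 7 of the 21 genes with CCAAT and 1 of the 3 without were at least 1.2-fold higher. Of all genes 3.25% were. Ggps1, which was not higher, had 3 matches to CCAAT. The 5 upstream sequences shown are that of Hmgcs1, for its sterol response element core, and those of Mvk, Mvd, Lss and Hsd17b7, 4 enzyme genes that were among the higher ones with Ift88 shRNA and that carry CCAAT boxes; the last 4 were chosen after their values were seen. Each runs 5′ to 3′ over the upstream part of its window, up to the outermost annotated start of the gene, which leaves 250 bases for Hmgcs1 and Mvd, 245 for Mvk, 210 for Lss and 213 for Hsd17b7. Capitals mark CCAAT or its complement ATTGG and, in Hmgcs1, also the match to TCACNCCAC.
Hmgcs1 chr13:119690101-119690350 (+): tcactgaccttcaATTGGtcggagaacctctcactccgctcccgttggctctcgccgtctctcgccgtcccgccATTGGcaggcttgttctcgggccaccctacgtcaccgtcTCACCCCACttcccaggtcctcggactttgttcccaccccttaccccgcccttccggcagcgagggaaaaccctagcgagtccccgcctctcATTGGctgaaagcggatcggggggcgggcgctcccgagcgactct
Mvk chr5:114444019-114444263 (+): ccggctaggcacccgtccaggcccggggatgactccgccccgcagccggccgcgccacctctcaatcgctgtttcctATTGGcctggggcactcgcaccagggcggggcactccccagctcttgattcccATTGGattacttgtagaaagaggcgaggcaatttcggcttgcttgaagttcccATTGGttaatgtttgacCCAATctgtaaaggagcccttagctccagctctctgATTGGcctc
Mvd chr8:122443423-122443672 (-): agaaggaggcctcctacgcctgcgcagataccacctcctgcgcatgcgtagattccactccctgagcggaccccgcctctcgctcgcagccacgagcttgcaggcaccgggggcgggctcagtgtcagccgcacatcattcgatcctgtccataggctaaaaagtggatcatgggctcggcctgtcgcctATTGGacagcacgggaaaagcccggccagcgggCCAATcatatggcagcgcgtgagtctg
Lss chr10:76531355-76531564 (+): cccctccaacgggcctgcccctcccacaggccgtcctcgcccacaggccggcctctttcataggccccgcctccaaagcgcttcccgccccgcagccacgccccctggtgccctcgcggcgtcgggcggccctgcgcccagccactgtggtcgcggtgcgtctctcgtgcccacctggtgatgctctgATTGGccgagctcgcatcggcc
Hsd17b7 chr1:169969243-169969455 (-): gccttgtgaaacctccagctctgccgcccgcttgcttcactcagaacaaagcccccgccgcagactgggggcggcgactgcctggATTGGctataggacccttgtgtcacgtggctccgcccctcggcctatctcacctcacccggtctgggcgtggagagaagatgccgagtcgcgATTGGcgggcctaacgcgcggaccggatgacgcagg
The Hmgcs1 stretch holds 3 CCAAT boxes beside its sterol response element core, the Mvk stretch 5, the Hsd17b7 stretch 2, the Mvd stretch 2 and the Lss stretch 1. The 29 genes lie on 15 chromosomes.

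The first 5 enzymes act on the way from acetyl-CoA to isopentenyl diphosphate, without covering each reaction of it. All 5 were lowest in the static library and highest with Ift88 shRNA. Acat2, the cytosolic thiolase that joins the first acetyl units (chromosome 17, 12943042 to 12960725, GRCm38), was at 8.59, 10.1 and 12.6 FPKM. Its near-identical neighbour Acat3 (0.975, 1.104 and 1.38 FPKM) shares 39.1% of the 50-base words of Acat2 transcripts, so the split between them is uncertain, but their sum kept the order, at 9.56, 11.2 and 13.97 FPKM. Hmgcs1, which encodes cytosolic HMG-CoA synthase (chromosome 13, 119690351 to 119708260), was at 25.97, 28.03 and 36.6 FPKM. Here the step between the sheared libraries was the larger one, with a ratio of 1.31 (1.25 to 1.37) for Ift88 shRNA against 1.08 (1.02 to 1.14) for shear. Mevalonate kinase, Mvk, was at 9.97, 11.97 and 14.7 FPKM, and phosphomevalonate kinase, Pmvk, at 11.99, 13.2 and 14.1 FPKM. Mvk was about equally far apart in both steps, with ratios of 1.1999 (1.06 to 1.35) and 1.23 (1.105 to 1.37), whereas both Pmvk intervals included 1, at 1.102 (0.961 to 1.26) and 1.06 (0.934 to 1.21). Mvd, the decarboxylase that yields isopentenyl diphosphate (chromosome 8, 122433596 to 122443422), was at 20.5, 25.7 and 32.7 FPKM. Its ratio was 1.25 (1.16 to 1.36) for shear and 1.28 (1.19 to 1.37) for Ift88 shRNA.

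Of the 3 isoprenoid enzymes, Idi1 and Fdps had the order of the mevalonate enzymes and Ggps1 did not. Idi1, the isomerase that makes dimethylallyl diphosphate, was at 12.96, 14.4 and 18.4 FPKM. Fdps, the farnesyl diphosphate synthase that bisphosphonates inhibit (chromosome 3, 89093588 to 89101967), was the most abundant of the synthesis enzymes at 58.1, 71.9 and 83.8 FPKM. Its ratio was 1.24 (1.17 to 1.31) for shear and 1.17 (1.11 to 1.23) for Ift88 shRNA. Ggps1, which makes geranylgeranyl diphosphate for protein prenylation rather than sterol, was at 3.1003, 2.87 and 2.6995 FPKM, in the opposite order, with intervals that included 1 in both steps, at 0.926 (0.807 to 1.06) and 0.93997 (0.817 to 1.08). Copies annotated as pseudogenes share up to 23.4% of the 50-base words of Fdps and up to 17.7% of those of Idi1. These copies had no matched level, and their effect on the Fdps and Idi1 values was not tested.

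From squalene to lanosterol, the first steps committed to sterol, the median ratio was the largest of the 6 steps. It was 1.61 between the sheared Ift88 shRNA and the static control library, and as a median of 3 genes it is the ratio of Fdft1. Fdft1, squalene synthase (chromosome 14, 63145150 to 63181687), was at 8.31, 11.4 and 13.4 FPKM, and had the largest shear ratio of the set, 1.38 (1.27 to 1.49). The Fdft1 value needs care, because 20.9% of its exon bases overlap Ctsb on the opposite strand, the sources used here do not say whether strand was used in counting, and Ctsb was at 4971, 4965 and 4796 FPKM. How much Ctsb signal reaches the Fdft1 value was not tested. Sqle, squalene epoxidase, a rate-limiting enzyme of the late pathway, was at 24.4, 28.2 and 35.3 FPKM, with ratios of 1.16 (1.09 to 1.23) and 1.25 (1.19 to 1.32). Lss, the lanosterol synthase that closes the ring system (chromosome 10, 76531565 to 76557139), was at 7.49, 9.09 and 12.5 FPKM. With Ift88 shRNA it stood at 1.37 (1.28 to 1.47) times the sheared control, and at 1.67 (1.55 to 1.79) times the static control, the largest ratio of the set for that pair of libraries.

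**Figure D1:**
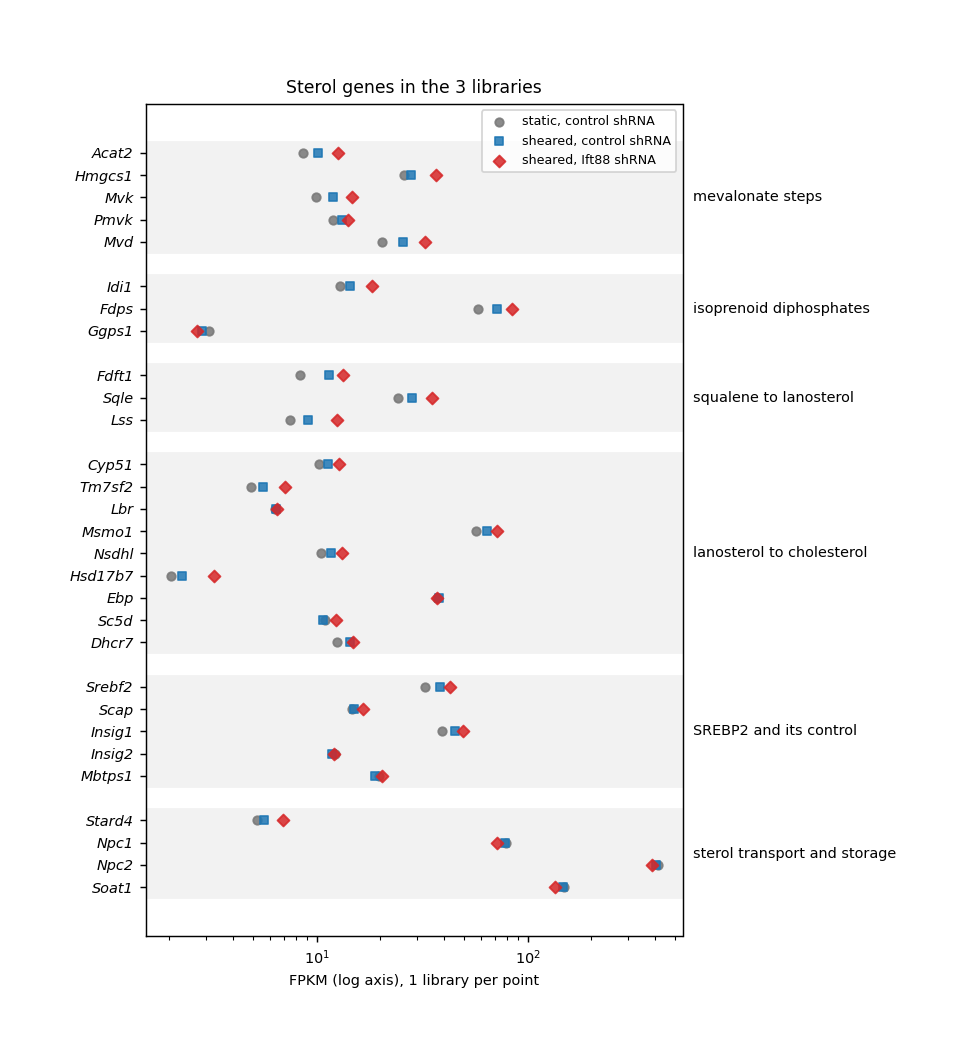
Level of each of the 29 genes in FPKM (log axis) in the static control shRNA (grey circles), sheared control shRNA (blue squares) and sheared Ift88 shRNA (red diamonds) library, by pathway step; each point is 1 library. Most enzymes run grey, blue, red from left to right, as Mvd does at 20.5, 25.7 and 32.7 FPKM, while Ggps1, Npc1, Npc2 and Soat1 run the other way in the deposited FPKM; for Npc1 and Soat1 the small grey to blue step turns after centring by transcript length and GC content.

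The 9 enzymes that trim lanosterol to cholesterol were less uniform. Cyp51, the lanosterol 14-alpha-demethylase, was at 10.3, 11.3 and 12.7 FPKM. The sterol 14-reductase step can be carried out by Tm7sf2 or by Lbr, the lamin B receptor, which is also a structural protein of the inner nuclear membrane, and the 2 genes differed. Tm7sf2 was at 4.88, 5.57 and 7.07 FPKM, and its ratio for Ift88 shRNA was 1.27 (1.07 to 1.502). Transcripts of Vps51 (22.4, 23.4 and 23.1 FPKM) share 9.87% of the 50-base words of Tm7sf2. How much Vps51 signal reaches the Tm7sf2 value was not tested. Lbr was nearly the same in all 3 libraries, at 6.39, 6.42 and 6.51 FPKM. The C4 demethylation complex followed Cyp51: Msmo1, the methyl oxidase, was at 56.8, 64.1 and 71.6 FPKM, and the dehydrogenase gene Nsdhl at 10.5, 11.7 and 13.2 FPKM. The third enzyme of that complex, the ketoreductase gene Hsd17b7 (chromosome 1, 169949535 to 169969242), had the lowest mean level of the set, at 2.04, 2.31 and 3.28 FPKM, and had the largest ratio for Ift88 shRNA, 1.42 (1.24 to 1.63), from an estimated 359 and 511 fragments. Its shear interval included 1, at 1.13 (0.972 to 1.32). Ebp, the sterol isomerase, was level at 37.2, 38.01 and 37.4 FPKM. Sc5d, the C5 desaturase, was highest in the last library, at 10.98, 10.7 and 12.4 FPKM, with a ratio of 1.16 (1.08 to 1.23) for Ift88 shRNA and 0.979 (0.916 to 1.05) for shear. Dhcr7, which reduces 7-dehydrocholesterol to cholesterol, had the reverse pattern, at 12.5, 14.4 and 14.9 FPKM, with 1.15 (1.06 to 1.25) for shear and 1.03 (0.958 to 1.12) for Ift88 shRNA.

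Among the 5 regulators, the counting interval lay above 1 for 2 in the shear step, Srebf2 and Insig1, and for 4 in the Ift88 step, all but Insig2. Of genes with estimated fragments, 13.9% and 18.4% did so. Srebf2, which encodes SREBP2 (chromosome 15, 82147269 to 82205379), was at 32.7, 38.2 and 42.7 FPKM, with ratios of 1.17 (1.13 to 1.21) and 1.12 (1.08 to 1.16). Insig1, itself a transcriptional target of SREBP, was at 39.4, 45.5 and 49.3 FPKM, with 1.16 (1.104 to 1.21) and 1.08 (1.04 to 1.13). Insig2, which retains SCAP in the same way and is regulated differently, stayed at 12.2, 11.8 and 12.03 FPKM. Its intervals included 1 in both steps, at 0.969 (0.795 to 1.18) and 1.02 (0.829 to 1.24). Insig2 fragments were computed on the shortest of its 4 transcripts, which widens these intervals. Scap, the escort protein gene, was at 14.6, 15.02 and 16.7 FPKM, and Mbtps1, which encodes the site-1 protease, at 19.9, 18.9 and 20.5 FPKM. The Scap ratio was 1.03 (0.965 to 1.09) for shear and 1.11 (1.05 to 1.18) for Ift88 shRNA. That of Mbtps1 was 0.951 (0.901 to 1.003) and 1.08 (1.03 to 1.14), so in the second step both were about as far above 1 as Insig1. All 5 regulators lay within 1.2-fold in each of these 2 steps, as most genes did. Of all genes, 1.94% were at least 1.2-fold higher and 2.26% lower for shear, and 3.25% and 2.29% for Ift88 shRNA.

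Sterol transport and storage genes included the most abundant transcripts of the set. Stard4, a cytosolic sterol carrier known as a target of SREBP2, was the one transport gene with the pattern of the enzymes, at 5.204, 5.61 and 6.94 FPKM, and its ratio for Ift88 shRNA was 1.24 (1.14 to 1.35). Npc1 and Npc2 pass cholesterol from the lysosomal lumen into the membrane. Npc2, the soluble carrier, was at 415, 406 and 389 FPKM, and Npc1, the membrane protein, at 78.8, 78.4 and 71.6 FPKM. Soat1, which esterifies cholesterol for storage in lipid droplets, was at 149, 147 and 135 FPKM. All 3 were lowest with Ift88 shRNA, with ratios to the sheared control of 0.913 (0.891 to 0.935) for Npc1, 0.958 (0.945 to 0.971) for Npc2 and 0.916 (0.903 to 0.929) for Soat1. These differences are under 10% and their narrow intervals reflect up to 44375 estimated fragments. In the shear step the 3 ratios lay between 0.979 and 0.995, and the direction of Soat1 and Npc1, but not of Npc2, depended on scaling: centring by transcript length and GC content moved the log2 ratio of Soat1 from -0.016 to 0.054 and that of Npc1 from -0.0075 to 0.016, and centring on the median moved Npc1 to 0.0036.

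The shear comparison asked how control cells differ after 24 hours of flow. A gene was counted as higher or lower from 1.2-fold upward on the scale of FPKM + 1, which understates low genes. In sheared cells 3 of the 29 genes were counted as higher, Mvd, Fdps and Fdft1, where 1.94% of all 10358 genes that passed the filter were. None of the 29 was counted as lower, where 2.26% of all genes were. Mvk and Lss lay just below the threshold, with FPKM ratios of 1.1999 and 1.21. By any amount 22 genes were higher, where 46% of all genes were, and 7 were lower, where 53.9% were. The 3 other scalings gave 21, 23 and 25 higher genes, for equal totals, centring on the median, and centring by length and GC content. The counting interval lay above 1 for 15 of the 29 and below 1 for 1, Npc2, where 13.9% and 17.8% of genes with estimated fragments did so. The median log2 ratio of the sterol genes was 0.13, against -0.011 for all genes.

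**Figure D2:**
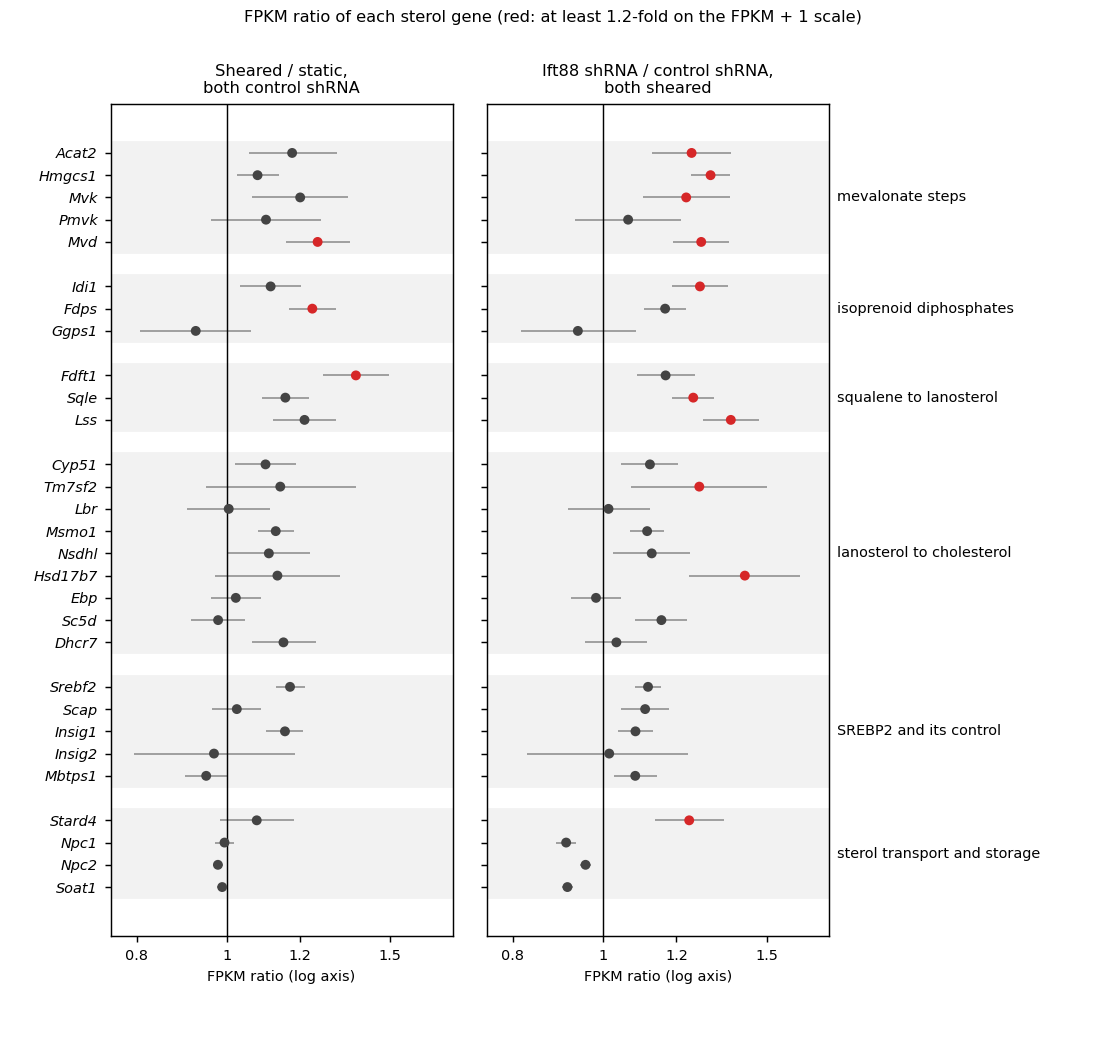
FPKM ratio of each of the 29 genes (log axis) for sheared over static cells with control shRNA (left) and for Ift88 shRNA over control shRNA in sheared cells (right), by pathway step. Bars are 95% counting intervals, red points passed 1.2-fold on the FPKM + 1 scale; 3 points are red on the left and 10 on the right, all above 1.

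The Ift88 comparison set Ift88 shRNA against control shRNA, both under shear. Counted as higher were 10 of the 29 genes, Acat2, Hmgcs1, Mvk, Mvd, Idi1, Sqle, Lss, Tm7sf2, Hsd17b7 and Stard4, where 3.25% of all genes were. No sterol gene was counted as lower, where 2.29% of all genes were. By any amount 24 were higher and 5 lower, where 53.6% and 46.4% of all genes were. The interval lay above 1 for 20 and below 1 for 3, where 18.4% and 13.5% of all genes with estimated fragments did so. The median log2 ratio was 0.16, against 0.0101 for all genes. By step, the median FPKM ratio was 1.25 for the mevalonate steps, 1.17 for the isoprenoid enzymes and 1.25 from squalene to lanosterol. It was 1.12 from lanosterol to cholesterol, 1.08 for the regulators and 0.937 for transport and storage. The shear and Ift88 comparisons both use the sheared control library, so its own deviation enters both with opposite sign.

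The 2 outer libraries, sheared cells with Ift88 shRNA and static cells with control shRNA, differ in both shear and shRNA, and their distance joins both steps. Here 17 of the 29 genes were counted as higher, where 4.79% of all genes were, and none as lower, where 4.48% were. Those 17 were 14 of the 20 enzymes, with Srebf2, Insig1 and Stard4. By any amount 24 of the 29 were higher and 5 lower, where 49.8% and 50.1% of all genes were. The counting interval lay above 1 for 21 and below 1 for 3, where 21.3% and 19.5% of genes with estimated fragments did so. The 6 enzymes not counted as higher were Pmvk, Ggps1, Lbr, Ebp, Sc5d and Dhcr7. The median log2 ratio of the sterol genes was 0.32, against -0.000298 for all genes. After Lss, the largest FPKM ratios were those of Hsd17b7 at 1.61 (1.397 to 1.86), Fdft1 at 1.61 (1.49 to 1.74) and Mvd at 1.599 (1.48 to 1.72).

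**Figure D3:**
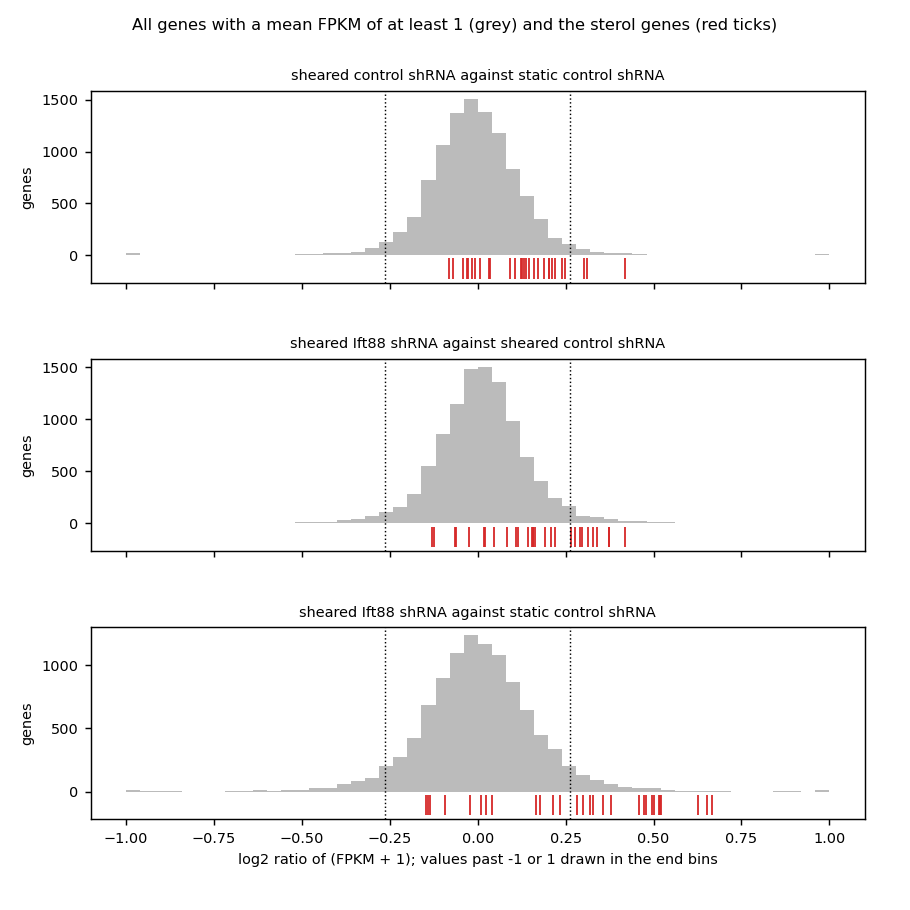
Number of genes by log2 ratio of FPKM + 1 (grey) for all genes averaging 1 FPKM or more, with the 29 sterol genes as red ticks, in 3 pairs of libraries; dotted lines mark 1.2-fold. The ticks lie mostly right of the grey peak, with medians of 0.13, 0.16 and 0.32 from top to bottom.

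Other genes around the pathway were taken from a list of 45, of which 40 passed the filter. For shear 0 of the 40 were counted as higher and 0 as lower, where 1.94% and 2.26% of all genes were. For Ift88 shRNA under shear 1 was higher and 1 lower, against 3.25% and 2.29%, and between the outer libraries 2 and 2, against 4.79% and 4.48%. These counts are near the shares of all genes. The counting interval between the outer libraries lay above 1 for 13 and below 1 for 11 of the 40. Of genes with estimated fragments, 21.3% and 19.5% did so. Genes that use the products of the pathway for protein prenylation, dolichol and ubiquinone had a median ratio of 1.02 between the outer libraries, and none of the 12 was counted in any pair. Of the 10 sterol sensing and SREBP processing genes, Erlin2, which encodes a cholesterol-binding endoplasmic reticulum protein, was counted as higher for Ift88 shRNA, at 18.4, 17.7 and 21.8 FPKM. Srebf1, the gene for SREBP1, which mainly drives fatty acid synthesis, was level at 17.4, 18.1 and 18.2 FPKM. Mbtps2, the site-2 protease gene, was at 9.53, 8.86 and 10.2 FPKM. The Mbtps2 ratio was 0.930 (0.865 to 1.001) for shear and 1.15 (1.07 to 1.24) for Ift88 shRNA.

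Uptake, storage and oxysterol genes gave the rest of the counted differences. Mylip, which encodes the ubiquitin ligase IDOL that degrades lipoprotein receptors and is induced by LXR, was lower with Ift88 shRNA, at 13.2, 12.2 and 9.81 FPKM. The ratio was 0.802 (0.738 to 0.873) to the sheared control and 0.743 (0.684 to 0.807) to the static control. Cyp27a1, the mitochondrial sterol 27-hydroxylase, was also lowest there, at 13.2, 12.04 and 10.03 FPKM, and was counted as lower against the static control, at 0.761 (0.684 to 0.848). Scarb1, the high-density lipoprotein receptor gene, was at 31.4, 35.6 and 37.97 FPKM, and was counted as higher against the static control, at 1.21 (1.14 to 1.28). Soat2, the second esterifying enzyme, was near the filter's limit, at 0.693, 1.01 and 1.33 FPKM, far below Soat1. It was counted as higher against the static control, at 1.92 (1.34 to 2.76), from an estimated 49 and 95 fragments. Its mean of 1.01 FPKM reached the limit only through its level in the sheared Ift88 shRNA library. The filter thus kept Soat2 because of the library where it is high, and it is among the 2 genes counted as higher there. Lysosomal acid lipase, Lipa, which frees cholesterol from endocytosed esters, was abundant and level at 594, 596 and 585 FPKM.

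**Figure D4:**
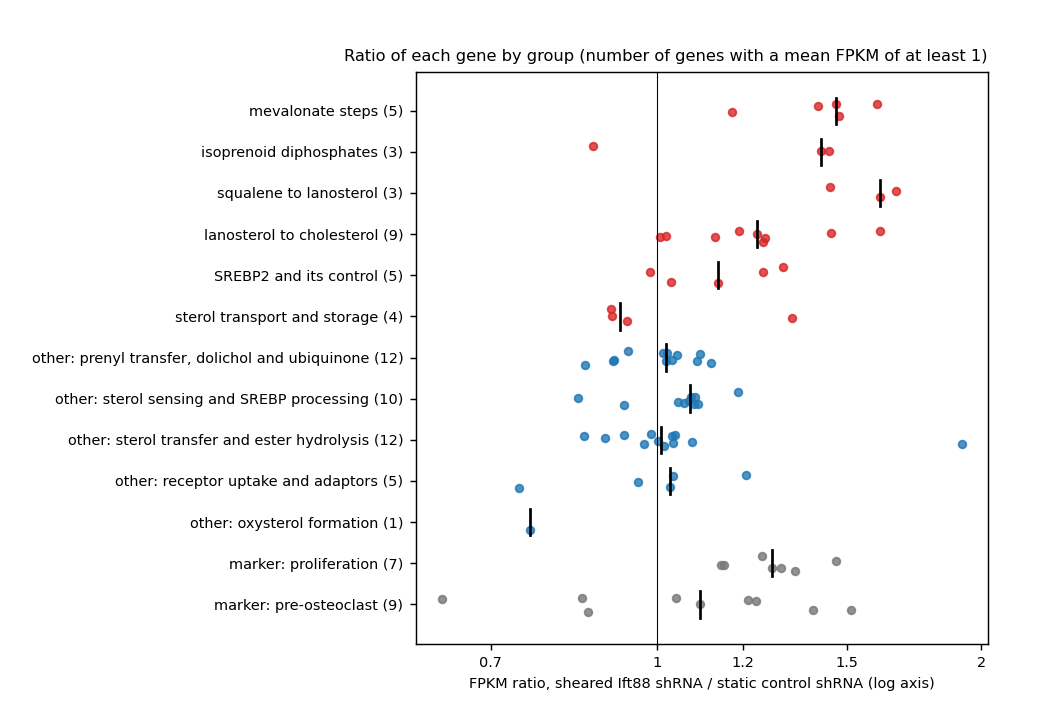
FPKM ratio of the sheared Ift88 shRNA library over the static control shRNA library (log axis) for each gene averaging 1 FPKM or more, by group; red points are the 29 sterol genes, blue points other genes around the pathway, grey points marker genes, and black bars are group medians. The medians run from 1.61 for squalene to lanosterol (3 genes, the value of Fdft1) to 0.923 for transport and storage among the red groups. Proliferation genes lie at 1.28.

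By level, FPKM being scaled per length, the set spanned 2.54 to 403 FPKM in the mean of the 3 libraries, with a median of 13.9, against 11.03 for all genes that passed the filter. Npc2, Soat1, Fdps, Npc1 and Msmo1 were the 5 most abundant in the sheared Ift88 shRNA library, whereas in the static library Npc1 stood above Fdps. Every library placed Hsd17b7 and Ggps1 lowest, but in the static and the sheared control library Hsd17b7 was the lower one and with Ift88 shRNA Ggps1 was.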

How the data were processed

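Poly(A)-selected RNA was sequenced from 3 libraries, 1 per group. The FPKM values were made by the authors and deposited as 1 table of 24067 genes with NCBI gene IDs and RefSeq transcripts, 1 column per library. Cufflinks 2.2.1, TopHat2 2.0.13, Trimmomatic 0.32 and bcl2fastq 1.8.4 are listed with mm10, per the submitters' processing notes; the sources used here do not state settings or the use of strand. FPKM is a share of a library, so abundant genes move all others, and Cufflinks divides fragments between near-identical copies by estimation.

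The genes and lists were chosen with earlier results of these data known. One other pathway gene and one lymphoid marker of these lists are not reported here. Groups came from the sample titles. All 29 genes of the rule are named. Of the other pathway genes, those at least 1.2-fold apart in any pair of libraries are named. A few more of them were added after their values were seen. Ratios used log2(FPKM + 1) over genes averaging 1 FPKM or more (10358 genes); bracketed ratios are of FPKM itself. No test was possible with 1 library per group. Depth (34785000, 35160000 and 35250000 fragments) was estimated from the spacing of low values in genes whose single transcript has 1000 bases or more, taking effective length as 190 bases below transcript length (GENCODE M21); 63.6% to 65.2% of values under 10 fragments were then whole within 0.1. Fragments were computed on the shortest transcript, and intervals are 95% Clopper-Pearson. The calculation was checked on simulated data. Coordinates and promoters are RefSeq GRCm38.p6, the assembly of mm10; 23987 gene IDs matched. Exon overlap used GENCODE M21 transcripts with a RefSeq match. Python 3.11.15 with numpy, pandas and scipy was used. Alternatives were another added constant, other filters, 3 other scalings and a 1.5-fold threshold.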

Additional observations from a re-analysis of the deposited data

How the results depend on the processing

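With a threshold of 1.5-fold the number of sterol genes counted as higher was 0 for shear, 0 for Ift88 shRNA under shear and 3 between the outer libraries, where 0.164%, 0.27998% and 0.338% of all genes were. Under the other 6 alternatives (an added constant of 0.1 FPKM, no filter, a mean of at least 5 FPKM, equal library totals, centring on the median, and centring by transcript length and GC content in bins) the counts were 3 to 4, 9 to 10 and 16 to 17, and the median log2 ratios 0.11 to 0.17, 0.15 to 0.19 and 0.32 to 0.34. With the constant of 0.1 FPKM the share of all genes counted as higher was 3.24%, 5.45% and 6.84%, and over the 6 alternatives it ran from 1.07% to 3.24%, 1.799% to 5.45% and 2.45% to 6.84%. After scaling to equal totals, 4.39% of all genes were higher and 1.83% lower with Ift88 shRNA, against 3.25% and 2.29%. No sterol gene was counted as lower in these runs. At a mean of at least 5 FPKM, Ggps1 and Hsd17b7 dropped out. Among single genes, 6 values, all of Npc1, Npc2 or Soat1, moved by more than their counting error and 510 did not; Soat1 for shear had a log2 ratio of -0.016, and of 0.054 after centring by length and GC content. No paired analysis was possible because each group had 1 library. Counting error weighs most where estimated fragments are few. Insig2, at 12.2 FPKM in the static library, rests on an estimated 206 fragments there. They were computed on the shortest of its 4 transcripts, 674 bases against 2697 for the longest. Its wide intervals therefore reflect that choice of length and not a low level.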
